A study of Homo sapiens with 8 samples.

Results

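The SLC6 family guides of a CRISPR knockout screen for regulators of PRMT5 are described here guide by guide. A guide (sgRNA) belonged to the family if the gene symbol it was assigned to began with SLC6A and a digit. Of the 10429 guides in the screen, 42 met this rule, 7 for each of 6 genes. The 35 guides described here target 5 of them: *SLC6A2*, *SLC6A3*, *SLC6A4*, *SLC6A6* and *SLC6A9*. The screen used Cas9-expressing, chemo-resistant cells of COV362, an established human cell line of high-grade serous ovarian cancer. The labels give no engineered genotype, and the expression of Cas9 is stated in the paper. After a lentiviral guide library against druggable genes had been expressed for weeks, the cells were fixed, stained for PRMT5 inside the cell and sorted into those with the most (PRMT5hi) and the least (PRMT5lo) of this arginine methyltransferase, with 4 libraries of genomic DNA per population. All replicates came from a single transduction that was split after selection, so the libraries measure the spread between cultures and sorts rather than between transductions.

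SLC6 proteins are plasma membrane symporters that use the sodium and chloride gradients to carry small neurotransmitters, amino acids and osmolytes into the cell. In the nervous system they end transmission by taking the transmitter back up, and several are targets of antidepressants, stimulants and antiepileptic drugs. Outside the nervous system the taurine transporter is widely expressed, and many cells hold taurine as an osmolyte. The genes described are those of the transporters of noradrenaline (*SLC6A2*), dopamine (*SLC6A3*), serotonin (*SLC6A4*), glycine (*SLC6A9*) and taurine (*SLC6A6*).

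In the RefSeq annotation of GRCh38.p14, *SLC6A6* lies at chr3:14402576-14489349. *SLC6A2* lies at chr16:55655988-55706192, *SLC6A3* at chr5:1392794-1445440, *SLC6A4* at chr17:30194319-30235697 and *SLC6A9* at chr1:43996483-44031462. The guides are known here only by gene and number, and their sequences and cut sites were not analysed, so the exon cut by each guide is not given.

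Abundance was taken as CPM (read counts normalized to the depth of each library), which the authors averaged over the 4 libraries of a population, and no value of a single library was analysed. Each CPM below is followed by its standard error (SE), the square root of the variance that the authors' beta-binomial fit gave the guide over the 4 libraries. The log2 ratio of a guide is log2 of CPM + 1 in PRMT5lo over CPM + 1 in PRMT5hi, so a negative value marks a guide that was more abundant in PRMT5hi cells, and the ratio understates differences at low CPM. The columns carry no population names, and the populations were assigned by the sign in the study's figure legend. The methods text gives the opposite sign, under which every direction below would turn and the limit on p for the negative side would be 0.001. With the legend's sign, *KEAP1* had a mean log2 ratio of -0.62 over its guides, 7 of them more abundant in PRMT5hi. The paper names *KEAP1* the top hit among genes whose loss raised PRMT5, and reports more PRMT5 in Western blots after its depletion. That is the PRMT5hi side, where *KEAP1* lies only under the legend's sign. Guides were compared with the beta-binomial test of CB2, which refers the difference in read share to a t distribution. Its p-values, and the gene values combined from them, are approximate with variances from 4 libraries per population, and no exact test over libraries could be run on the pooled values. The depth that the smallest variances imply was 16166859 reads for PRMT5hi and 19117396 for PRMT5lo. The variance was at this smallest value, that of read counting alone, for 6 of the 35 guides in PRMT5hi and 5 in PRMT5lo (12.0% and 17.5% of targeting guides), and their SE shows no spread over libraries beyond it. At this depth a guide of the 35 had from 64.5 to 1187 reads per library. Reads amplified by PCR without molecular identifiers are not independent molecules, and these depths set the counting error only.

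Of the 35 guides, 25 were more abundant in PRMT5hi cells and 10 in PRMT5lo cells, against 50.2% of the 9929 targeting guides that were more abundant in PRMT5hi. The median log2 ratio of the 35 guides was -0.13 (SD 0.38 over guides), beside -0.0018 (SD 0.29) for all targeting guides and 0.011 (SD 0.25) for the 500 control guides. The lean came mostly from *SLC6A6* and *SLC6A2*. The guides of the other 3 genes had a median of -0.027, and 12 of these 21 were more abundant in PRMT5hi.

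Of the 5 genes, *SLC6A2* and *SLC6A6* passed the thresholds used here toward PRMT5hi and none passed toward PRMT5lo. The limits on p and log2 ratio were taken from the study's figure legend, which gives them for sgRNAs. They were applied here per gene, to a one-sided p combined over its guides by Fisher's method and to the mean log2 ratio. A gene passed with a p under 0.01 and a mean below -0.25 for PRMT5hi or above 0.25 for PRMT5lo. The methods text instead pairs a negative mean with PRMT5lo and a limit of 0.001, and at that limit 0 of the 5 genes passed. Among all 1420 genes, 12 passed toward PRMT5hi (0.845%) and 10 toward PRMT5lo (0.704%). Neither transporter passed when Fisher's p was adjusted over all genes (Benjamini-Hochberg adjusted p = 0.289 for *SLC6A2* and 0.356 for *SLC6A6*).

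*SLC6A6* carries taurine and beta-alanine, and all 7 of its guides were more abundant in PRMT5hi cells. This holds for 1.20% of the 1413 genes with 7 guides. The mean log2 ratio was -0.36 (SD 0.29 over guides, SE 0.11 from the variances over libraries), and the one-sided Fisher p was 0.00927. This mean equals a 1.29-fold higher geometric mean of CPM + 1 in PRMT5hi. The plain means over guides were 82.1 CPM in PRMT5hi and 67.6 CPM in PRMT5lo. Guide SLC6A6_5 had the most negative ratio, -0.89, with 28.8 ± 6.31 CPM (SE) in PRMT5hi and 15.1 ± 2.40 CPM in PRMT5lo. It was also the least abundant guide of the gene, with 116 reads per library in PRMT5hi and 72.0 in PRMT5lo.

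SLC6A6_6 followed with a ratio of -0.57, from 64.0 ± 5.24 CPM in PRMT5hi and 42.7 ± 6.90 CPM in PRMT5lo. SLC6A6_4 had a ratio of -0.47, from 66.5 ± 15.7 CPM and 47.9 ± 14.2 CPM, and its errors were the widest of the gene relative to its level. The remaining 4 guides had ratios between -0.24 and -0.07. SLC6A6_7, the most abundant, stood at 176 ± 17.9 CPM in PRMT5hi and 150 ± 2.79 CPM in PRMT5lo, with a ratio of -0.24. SLC6A6_2 stood at 89.1 ± 7.13 and 78.4 ± 8.33 CPM (ratio -0.18) and SLC6A6_3 at 77.0 ± 7.79 and 70.0 ± 1.89 CPM (ratio -0.14). SLC6A6_1 was close to even, with 73.1 ± 6.79 CPM in PRMT5hi and 69.7 ± 7.42 CPM in PRMT5lo.

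No single guide of *SLC6A6* reached a two-sided p under 0.05. SLC6A6_6 reached a one-sided one (beta-binomial test, p = 0.0259, two-sided p = 0.0518), and SLC6A6_5 came next with a one-sided p of 0.0584. The call of the gene was lost when SLC6A6_2, SLC6A6_3, SLC6A6_5, SLC6A6_6 or SLC6A6_7 was left out, with means from -0.40 to -0.28 and a one-sided p from 0.0108 to 0.0367, and kept without SLC6A6_1 or SLC6A6_4. It was also lost when the variance of each guide was taken from the trend over guides of like abundance (one-sided Fisher p = 0.0182). With these variances 3.23% of targeting guides, not 6.00%, passed a one-sided p of 0.05 toward PRMT5hi. Among all 1420 genes 9, not 12, passed the thresholds toward PRMT5hi.

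*SLC6A2*, the noradrenaline transporter, had 6 of 7 guides more abundant in PRMT5hi, with ratios from -0.83 to -0.087. At least 6 of 7 guides on this side were found for 6.44% of genes. The mean log2 ratio was -0.32 (SD 0.37 over guides, SE 0.080 from the variances over libraries), and the one-sided Fisher p was 0.00650. This mean equals a 1.25-fold higher geometric mean of CPM + 1 in PRMT5hi. The plain means over guides were 132 CPM in PRMT5hi and 113 CPM in PRMT5lo. SLC6A2_5 stood at 95.8 ± 15.8 CPM in PRMT5hi and 53.5 ± 8.41 CPM in PRMT5lo, a ratio of -0.83. SLC6A2_6 stood at 102 ± 13.5 and 59.2 ± 10.0 CPM, a ratio of -0.77. SLC6A2_7 stood at 103 ± 3.29 and 77.4 ± 10.7 CPM, a ratio of -0.41.

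These 3 guides each passed a one-sided p of 0.05 toward PRMT5hi in the beta-binomial test (p = 0.0344, 0.0240 and 0.0461), and SLC6A2_6 also a two-sided one (p = 0.0480). The mean of the 3 was -0.67, and that of the other 4, a division made after the values were seen, was -0.052. SLC6A2_3 stood at 143 ± 13.4 CPM in PRMT5hi and 124 ± 9.04 CPM in PRMT5lo, with a ratio of -0.20. SLC6A2_4, the most abundant, had 206 ± 14.6 and 193 ± 3.15 CPM (ratio -0.099) and SLC6A2_2 had 147 ± 10.3 and 138 ± 8.59 CPM (ratio -0.087). SLC6A2_1 ran the other way, with 128 ± 7.36 CPM in PRMT5hi and 145 ± 2.73 CPM in PRMT5lo, a ratio of 0.18 (one-sided p toward PRMT5lo = 0.0659, beta-binomial test). Its variance in PRMT5lo was at the smallest value, and with the variance from the trend this beta-binomial p was 0.225.

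Without SLC6A2_5, SLC6A2_6 or SLC6A2_7 the gene no longer passed, with means of -0.23, -0.24 and -0.30 and one-sided p-values of 0.0219, 0.0274 and 0.0182. Without any of the other 4 it passed, with a p from 0.00246 to 0.00865. With variances from the trend it also passed (one-sided Fisher p = 0.00601). With the median over guides in place of the mean, *SLC6A2* (-0.20) and *SLC6A6* (-0.24) both fell short of 0.25. By this measure *SLC6A4*, at -0.21, lay between them.

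In both genes the guides with the most negative ratios were the least abundant ones in PRMT5hi. The 3 lowest ratios of *SLC6A6* came from guides at 28.8 to 66.5 CPM in PRMT5hi and the other 4 guides lay at 73.1 to 176 CPM. For *SLC6A2* the ranges were 95.8 to 103 CPM and 128 to 206 CPM. Across the 35 guides, guide abundance, averaged over the populations as log2(CPM + 1), had a Spearman rho of 0.38 and a Pearson r of 0.20 with the log2 ratio, and across all 9929 targeting guides the values were 0.020 and 0.021. Guides of a gene share a target and abundance enters both measures, so this is a description. Among targeting guides in the least abundant tertile the SD of the ratio was 0.38, and in the most abundant tertile 0.21, while the medians were -0.012 and 0.0035. Of the 35 guides, 11 were in the least abundant tertile, 9 of them more abundant in PRMT5hi with a median ratio over the 11 of -0.38. The most abundant tertile also held 11, with 7 more abundant in PRMT5hi and a median of -0.087.

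*SLC6A3*, the dopamine transporter, had the most abundant guides of the 5 genes, at a mean of 138 CPM in PRMT5hi and 139 CPM in PRMT5lo. Its mean log2 ratio was 0.018 (SD 0.23 over guides, SE 0.086 from the variances over libraries), with 3 guides more abundant in PRMT5hi and 4 in PRMT5lo, and the one-sided p was 0.320 toward PRMT5hi and 0.630 toward PRMT5lo. SLC6A3_3 was the exception, with 102 ± 2.49 CPM in PRMT5hi and 77.9 ± 6.27 CPM in PRMT5lo, a ratio of -0.39 and a two-sided p of 0.0296. Its variance in PRMT5hi was at the smallest value, and with the variance from the trend the p was 0.189. SLC6A3_5 had a ratio of the opposite sign, from 91.5 ± 11.6 and 115 ± 29.3 CPM (ratio 0.33), with a two-sided p of 0.489. SLC6A3_2, at 221 ± 30.6 and 220 ± 17.5 CPM, and SLC6A3_6, at 149 ± 4.29 and 149 ± 9.41 CPM, were even. The ratios of SLC6A3_1, SLC6A3_7 and SLC6A3_4 were -0.13, 0.14 and 0.17.

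*SLC6A4*, the serotonin transporter, had a mean of -0.095 (SD 0.22 over guides, SE 0.11 from the variances over libraries) and no guide past a p of 0.05 in either direction. Its abundances ran from 28.2 ± 3.65 CPM (SLC6A4_3) to 225 ± 3.70 CPM (SLC6A4_7) in PRMT5hi, the widest span of the 5 genes, and the ratios did not follow it. SLC6A4_7 had 248 ± 39.2 CPM in PRMT5lo and a ratio of 0.14, and SLC6A4_3 had 31.6 ± 8.15 CPM and a ratio of 0.16. SLC6A4_4 had the most negative ratio, -0.38, with 61.5 ± 3.99 CPM in PRMT5hi and 47.0 ± 8.90 CPM in PRMT5lo (two-sided beta-binomial p = 0.210). SLC6A4_5 stood at 180 ± 3.32 and 155 ± 15.5 CPM, a ratio of -0.21 (two-sided beta-binomial p = 0.237). SLC6A4_1 and SLC6A4_6, both under 36 CPM, had ratios of -0.22 and -0.25, and SLC6A4_2 one of 0.098. The median guide of this gene had an SE of 18.0% of its level in PRMT5lo and 6.50% in PRMT5hi, where SLC6A4_2, SLC6A4_5 and SLC6A4_7 were at the smallest variance.

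*SLC6A9*, the glycine transporter GlyT1, had the least abundant guides of the 5 genes, at a mean of 58.6 CPM in PRMT5hi, and the widest spread of ratios. Its mean was 0.029 with an SD of 0.58 over guides (SE 0.13 from the variances over libraries), an SD larger than that of 98.6% of genes. SLC6A9_7 stood at 18.8 ± 4.69 CPM in PRMT5hi and 43.7 ± 14.1 CPM in PRMT5lo, a ratio of 1.17 that was higher than that of 99.9% of targeting guides. Its SE in PRMT5lo was 32.3% of its level, and the two-sided p was 0.176, or 0.0302 with the variance from the trend. SLC6A9_5 lay in the other direction with 53.3 ± 3.30 and 35.8 ± 3.94 CPM, a ratio of -0.56 and a two-sided p of 0.0143, the smallest of the 35 guides (beta-binomial test, adjusted p = 0.525 over all guides). With the variance from the trend its p was 0.149.

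Of the remaining *SLC6A9* guides, SLC6A9_1 had 19.5 ± 3.82 CPM in PRMT5hi and 13.5 ± 2.43 CPM in PRMT5lo, a ratio of -0.50 (two-sided beta-binomial p = 0.242). SLC6A9_1 was the single guide of the 35 under 20 CPM in the mean of both populations, a level that 3.38% of targeting guides fell under. SLC6A9_4 had a ratio of 0.22, and SLC6A9_2, SLC6A9_3 and SLC6A9_6 had ratios between -0.058 and -0.027. Without SLC6A9_7 the mean of the gene turned from 0.029 to -0.16, with a one-sided p toward PRMT5hi of 0.0840.

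Taken guide by guide, 3 of 35 (8.57%) had a two-sided p under 0.05, beside 6.53% of all targeting guides and 8.60% of control guides. These were SLC6A2_6, SLC6A3_3 and SLC6A9_5, from 3 genes and all more abundant in PRMT5hi. *SLC6A6*, which had the most negative mean, held none of them. By one-sided p, 6 guides passed 0.05 toward PRMT5hi (17.1%, against 6.00% of targeting guides), 3 of them of *SLC6A2*, and 0 toward PRMT5lo (against 5.66%). With variances from the trend, 2 guides passed toward PRMT5hi (SLC6A2_5 and SLC6A2_6, against 3.23% of targeting guides) and 1 toward PRMT5lo (SLC6A9_7, against 3.03%). By two-sided p these same 3 passed, against 1.87% of targeting guides, and SLC6A3_3 and SLC6A9_5 did not. None of the 35 passed an adjusted p of 0.05 over all guides, which 0.0504% of targeting guides did. A ratio below -0.5 was found for 5 guides, 2 of *SLC6A2*, 2 of *SLC6A6* and 1 of *SLC6A9*, and such ratios made up 4.51% of targeting guides.

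The order of the 5 means was *SLC6A6*, *SLC6A2*, *SLC6A4*, *SLC6A3* and *SLC6A9* from PRMT5hi to PRMT5lo. The difference between *SLC6A6* and *SLC6A2*, at -0.36 and -0.32, was smaller than either SE. The means of *SLC6A4*, *SLC6A3* and *SLC6A9*, from -0.095 to 0.029, each lay within 1 SE of 0.

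Genes of related function were set beside the transporters by their counts alone. Of 8 genes that make, store or break down monoamines none passed the thresholds. Of 32 monoamine receptors none passed, and the serotonin receptor gene *HTR1F* had the largest mean, -0.24 (one-sided Fisher p = 0.000979, adjusted p = 0.117). Of 15 GABA and glycine receptor genes *GABBR2*, a subunit of the GABA-B receptor, passed toward PRMT5hi (mean -0.25, one-sided Fisher p = 0.00302, adjusted p = 0.209). The most negative mean of this list was that of another gene, which did not pass. The median gene mean was -0.0027 for the monoamine enzymes, 0.0011 for the monoamine receptors and -0.031 for the GABA and glycine receptors, beside -0.0033 for all genes.

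None of the 3 genes of GABA breakdown and glutamine synthesis passed (median -0.010, largest mean -0.14 for *GLUL*, glutamine synthetase). None of the 3 organic cation transporters that also carry monoamines passed (median -0.027, largest mean 0.19 for *SLC22A2*). None of 16 other sodium-coupled solute carriers passed (median -0.037, largest mean 0.13 for *SLC5A4*). Of all 64 solute carrier genes outside the family in the library, none passed in either direction, and their means ran from -0.18 to 0.20. The difference between *SLC6A2* or *SLC6A6* and the other carriers was not tested.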

How the data were processed

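With CB2, the authors matched single-end reads to the guide library and compared the populations. FastQC and hg38 are named in the submitters' processing notes. The version of CB2 was not given in the sources used. The authors deposited a table per guide. Its CPM values are the authors' means over 4 libraries, its fractions are the authors' estimates of a guide's share of reads, and their variances are over the same libraries. The columns of log2 fold changes, scores and p-values, and the gene table, hold the authors' own comparisons and were not used. The columns name no population. They were assigned by the sign in the study's figure legend, to which the methods text is opposite. Only the legend's sign puts *KEAP1* on the side that the paper reports for it.

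With Python 3.11.15, numpy 2.4.6, pandas 2.3.3 and scipy 1.17.1, CB2's guide test (difference of fractions over its standard error, t distribution with Welch's degrees of freedom) was recomputed for 10429 guides, and one-sided p-values were combined by Fisher's method for 1420 genes, with Benjamini-Hochberg adjustment over all of them. The tests were first run on simulated libraries with larger gene changes than those of the 5 genes. No result here rests on that run. The SE of a gene mean combines the guides' errors on the log2 scale. Depth was recovered from the smallest variances. Trend variances are means over 20 abundance bins. Coordinates of 5 of 5 genes were matched by symbol.

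All guides of 5 genes of the family were described; 1 gene, and some results of the related lists, are not reported here. Of each related list the genes past the thresholds or, if none, the one with the largest mean in size, was to be named. The members and the related lists were chosen with earlier results of these data known. Guide positions were planned and not run.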

Additional observations from a re-analysis of the deposited data

How the results depend on the processing

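The values rest on the mean of 4 libraries per population, so single libraries could not be left out, and the variance of each guide rests on 4 libraries. No paired analysis was possible because the columns hold pooled values with no replicate number. Of the alternatives other than leaving out guides, 29 left a mean within 1 SE of that reported or a count within 1.5 times of it, and 10 did not. Within that limit *SLC6A9* moved from 0.029 to 0.12 with guides of at least 20 CPM and to -0.039 with the median over guides. With pseudocounts of 5 or 10, guides of at least 20 CPM, ratios centred on control guides, or Stouffer's method, *SLC6A2* and *SLC6A6* passed, 2 of 5 genes. With trend variances the guides past a one-sided p of 0.05 went from 6 to 2 toward PRMT5hi and from 0 to 1 toward PRMT5lo. The trend variance for genes and for these one-sided counts was chosen after seeing the data. With variances from the trend 1 gene passed, and 0 passed at a one-sided p under 0.001 or an adjusted p under 0.05. The cause was not tested, beyond the stricter limits themselves. With the median over guides, *SLC6A2* stood at -0.20, *SLC6A4* at -0.21 and *SLC6A6* at -0.24. The count of guides past a two-sided p of 0.05 was 3, also 3 with trend variances (SLC6A2_5, SLC6A2_6 and SLC6A9_7), where the share of targeting guides was 1.87%, not 6.53%, and 0 at a p under 0.01 or after adjustment. Leaving out each guide in turn left 1 to 2 genes past the thresholds and gave means from -0.40 to -0.23 for *SLC6A2*, -0.41 to -0.28 for *SLC6A6*, -0.14 to -0.047 for *SLC6A4*, -0.034 to 0.085 for *SLC6A3* and -0.16 to 0.13 for *SLC6A9*. Over all genes, 12 passed toward PRMT5hi and 10 toward PRMT5lo, and under the alternatives 3 to 17 and 0 to 13.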
